A study of Saccharomyces cerevisiae with 104 samples.

Results

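The budding yeast strain H4R55A, in which histone H4 has alanine in place of arginine at residue 55, was compared with H3K18A and H3K37R, strains with alanine for lysine at residue 18 and arginine for lysine at residue 37 of histone H3. The comparison used the 3 H4R55A libraries and the 3 libraries of each H3 mutant, 9 of the 90 RNA libraries of the series, taken by the genotype that opens their column name. These libraries stand side by side in a run of neighbouring sample numbers (S118 to S141, 24 libraries in all), so that they were set against each other without crossing to the other runs, where 3 of the 4 wild type (WT) libraries lie. All strains share the MSY196 background, which derives from S288C, and the growth medium of the RNA cultures is not given in the sources used here. WT has no histone mutation. RNA was measured by QuantSeq, which reads the 3′ end of polyadenylated transcripts, and levels are counts per 1000000 counts (CPM) after TMM scaling, which corrects library totals with a trimmed mean of log ratios.

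Histones H3 and H4 form the tetramer at the centre of the nucleosome. Arginine 55 of H4 lies in the histone fold, the folded core of the protein, whereas lysine 18 of H3 lies in the N-terminal tail, where it can be acetylated, and lysine 37 lies at the base of that tail, beside the methylated lysine 36. Yeast carries a pair of genes for each of H3 and H4, and histone gene transcription is tied to the cell cycle and to the demand for new nucleosomes.

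The libraries held between 1302079 and 1612985 counts in genes for H4R55A, between 1594089 and 1935822 for H3K18A and between 1517538 and 1923911 for H3K37R. The H4R55A libraries differed more among themselves than those of either H3 mutant: chi-square per degree of freedom between library pairs was 10.4 to 27.1 in H4R55A, against 2.57 to 5.31 in H3K18A and 4.22 to 8.62 in H3K37R. H4R55A S125 stood farthest from the mean of the 6 H3K18A and H3K37R libraries, with a standard deviation over genes of 0.698 (log2), against 0.548 in H4R55A S126 and 0.387 in H4R55A S124. Reads with more than a single placement numbered 4.86 to 5.26 times the gene counts in H4R55A and 3.12 to 5.09 times in the 6 H3 mutant libraries. The 50 most abundant genes took 29.2% to 31.8% of the counts in H4R55A and 31.6% to 36.6% in the H3 mutants; the part of these differences in the results was not tested. Genes specific to alpha cells were expressed in all 9 libraries, among them STE3, the receptor for a-factor, at 50.3 to 69.7 CPM in H4R55A and 44.2 to 59.5 CPM in the H3 mutants. The tested genes specific to a cells (STE2, MFA1, MFA2, STE6 and BAR1) stayed under 10 CPM in H4R55A, and none of the markers of either mating type was called. No nuclear chromosome was shifted as a whole in H4R55A: the median of each lay within 0.174 of the level of the H3 mutants in every H4R55A library (log2).

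Between H4R55A and the mean of the H3 mutants, 20 of 5822 tested genes (0.344%) were called at a Benjamini-Hochberg adjusted p under 0.05 in edgeR's quasi-likelihood test, 13 higher (0.223%) and 7 lower (0.12%). The labels do not say whether libraries of one genotype came from separate cultures, so these p-values measure only the spread between libraries. An unadjusted p under 0.05 was reached by 969 genes (16.6%), and in 508 genes (8.73%) all H4R55A libraries lay on one side of all 6 H3 mutant libraries. H3K18A and H3K37R, compared with each other in the same way, differed in 1 gene (0.0172%), CSM3, and 298 genes (5.12%) had an unadjusted p under 0.05. The count of 20 rested on single libraries. It was 3 without H4R55A S125, 7 without H4R55A S126, 158 without H4R55A S124, 6 without H3K37R S121, 12 without H3K37R S122, 9 without H3K18A S128 and 11 without H3K18A S129. CYC1, COS12 and LOH1 were the 3 genes called without H4R55A S125. CYC1 and COS12 were also called in each of the 9 fits that left out a library of these genotypes.

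**Figure D1:**
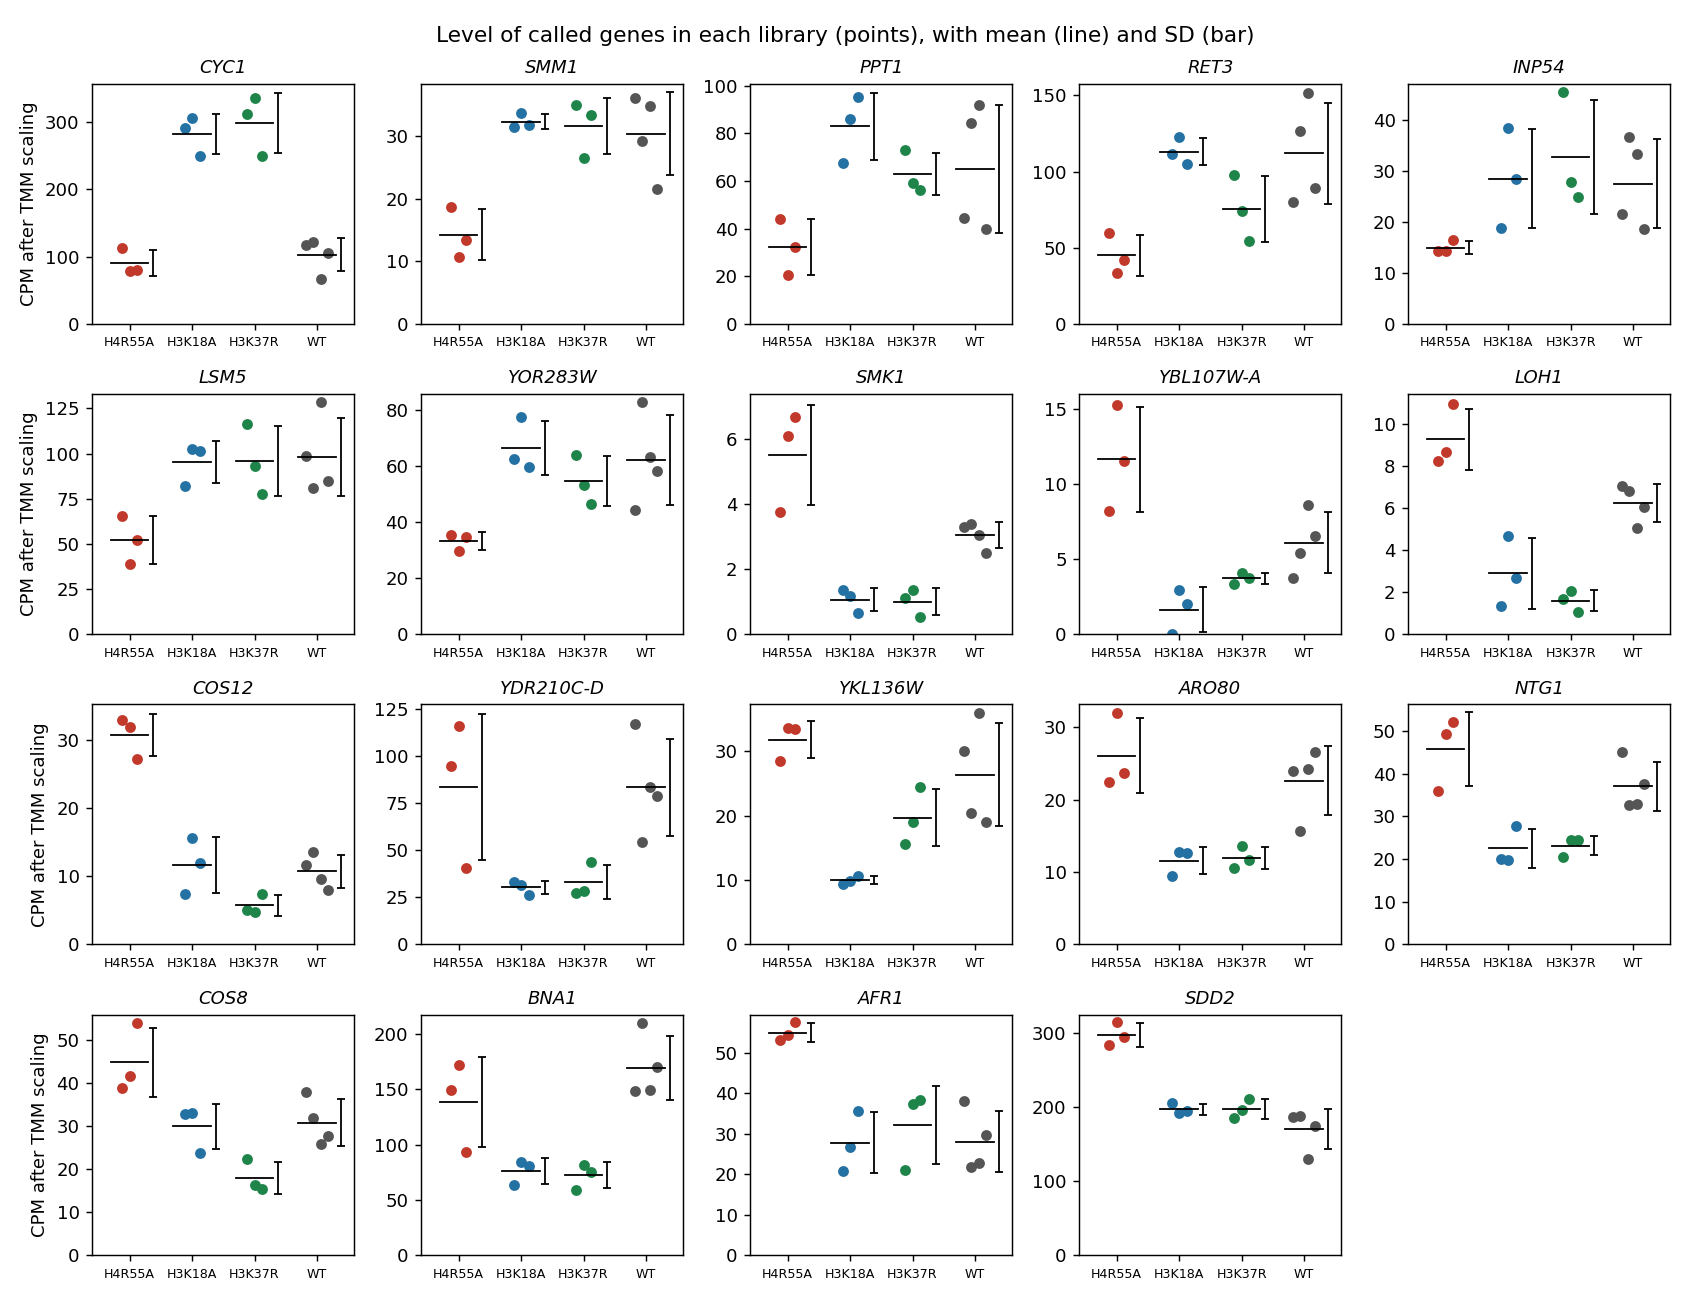
Level in CPM after TMM scaling (y axis, linear, from 0) of 19 of the 20 called genes in each library (points) of H4R55A (3), H3K18A (3), H3K37R (3) and WT (4), with the mean as a line and the SD as a bar. CYC1 lies between 78.3 and 112.4 CPM in H4R55A, below every library of both H3 mutants and among the WT libraries, while COS12 lies between 27.3 and 32.97 CPM in H4R55A, above every library of the other groups.

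Among the genes that fell, CYC1 changed most. CYC1 (YJR048W, chromosome X, 526335 to 526664 in the R64 assembly) encodes iso-1-cytochrome c, the electron carrier between respiratory complexes III and IV. It had 112.4, 78.3 and 80.7 CPM in H4R55A, against 292, 306 and 249 CPM in H3K18A and 312, 335 and 249 CPM in H3K37R. All H4R55A libraries lay far under both H3 mutants, with no overlap. The log2 fold change was -1.69 ± 0.26 (SE), a level of 0.311 of that in the H3 mutants (edgeR, adjusted p = 6.57e-05). WT libraries held 66.8 to 122.3 CPM of CYC1, so the H4R55A libraries lay within the WT range (log2 fold change against WT -0.19, adjusted p = 0.75). H3K18A and H3K37R both stood above WT, by 1.46 and 1.54 on the log2 scale (edgeR, adjusted p = 0.00131 and 0.000491). Both calls held with the run of sample numbers as a covariate, and within the run, where WT has 1 library, that of H3K18A held (1.28, adjusted p = 0.0172) and that of H3K37R did not (1.37, adjusted p = 0.0568). Of the transcription factors of respiratory genes, HAP1 had a log2 fold change of -0.67 (adjusted p = 0.23) and HAP4 one of -0.69 (adjusted p = 0.24) in edgeR's test, neither called. CYC1 was the 1 called gene of 44 tested nuclear genes of the respiratory chain and its regulators.

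LSM5 (YER146W, chromosome V, 462585 to 462866) encodes a subunit of the Lsm rings that act in mRNA decapping and bind U6 small nuclear RNA. Its levels were 65.2, 38.6 and 52.2 CPM in H4R55A, against 81.8, 102.4 and 101.3 CPM in H3K18A and 116.2, 93.2 and 77.6 CPM in H3K37R. The groups did not overlap, and the fold was -0.89 ± 0.16 (log2 ± SE; edgeR, adjusted p = 0.00122). LSM5 was also lower than in WT (80.9 to 128.5 CPM), by a log2 fold change of -0.93 (edgeR, adjusted p = 0.00174), and the WT libraries too lay wholly above H4R55A. With the run of sample numbers as a covariate LSM5 was still called against WT (-1.02, adjusted p = 0.0138 in edgeR), but neither within the run (-0.913, adjusted p = 0.0869) nor without H4R55A S125 (-0.747, adjusted p = 0.256). H4R55A had the lowest mean of LSM5 among the 30 genotypes, at 51.99 ± 13.3 CPM (SD, n = 3). The next lowest was H3K37Q at 62.6 CPM, whose range overlapped that of H4R55A. Here and below, the called genes were picked on the H4R55A libraries, so their ranks among genotypes are not independent of that choice. The gene overlaps YER145C-A in the annotation, and the strand setting of the counting is not given in the sources used here, so reads of these genes cannot be told apart.

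The other 5 genes that fell had log2 fold changes between -1.19 and -0.87. SMM1, which encodes a dihydrouridine synthase that modifies tRNA, had 18.7, 10.7 and 13.3 CPM in H4R55A and 26.5 to 35.04 CPM in the 6 H3 mutant libraries (log2 fold change -1.19; edgeR, adjusted p = 0.0237). PPT1, a protein phosphatase that acts on the chaperone Hsp90, had 44.2, 20.3 and 32.1 CPM in H4R55A and 56.4 to 95.3 CPM in the H3 mutants (log2 fold change -1.18). YOR283W, a phosphatase gene, had 35.2, 29.5 and 34.6 CPM in H4R55A and 46.3 to 77.4 CPM in the H3 mutants (log2 fold change -0.87). In these 3 genes every H4R55A library lay below every H3 mutant library. INP54, a phosphoinositide phosphatase gene, had 14.2 to 16.4 CPM in H4R55A and 18.8 to 45.6 CPM in the H3 mutants, with a log2 fold change of -1.03. RET3, which encodes the zeta subunit of the COPI vesicle coat and was named after its values were seen because its libraries overlapped, had 33.5 to 59.9 CPM in H4R55A and 54.2 to 122.7 CPM in the H3 mutants. Its log2 fold change was -1.05 (edgeR, adjusted p = 0.0490). H4R55A had the lowest mean of INP54 and of RET3 among the 30 genotypes. H4R55A S125 was the lowest of the 9 libraries in all 7 genes that fell, CYC1 and LSM5 included. Of the 13 genes that rose, H4R55A S125 was the highest in 6, S126 in 6 and S124 in 1. INP54 was called in 3 and RET3 in 2 of the 9 fits that left a library out.

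Of the genes that rose, COS12 was called most steadily. COS12 (YGL263W, chromosome VII, 2790 to 3932) lies beside the left telomere and belongs to the COS family, subtelomeric genes for membrane proteins that aid the sorting of other membrane proteins to the vacuole. It had 32.97, 32.02 and 27.3 CPM in H4R55A, against 7.38, 15.7 and 11.9 CPM in H3K18A and 5.01, 4.76 and 7.44 CPM in H3K37R. The H4R55A libraries lay close together and above all others, and the log2 fold change was 1.89 ± 0.33 (SE; edgeR, adjusted p = 0.000843). COS12 was also higher than in WT (8.03 to 13.6 CPM), by a log2 fold change of 1.52 (edgeR, adjusted p = 0.0195), a call lost with the run as a covariate (1.7, adjusted p = 0.105), within the run (1.41, adjusted p = 0.0869) and without H4R55A S125 (1.49, adjusted p = 0.268). H4R55A had the highest mean of the 30 genotypes, at 30.8 ± 3.04 CPM (SD, n = 3), and the libraries of 28 other genotypes lay wholly below it. The exception was H3K4R, whose 3 libraries ran up to 36.02 CPM and include 1 of low depth. COS genes share long stretches of near-identical sequence, and how reads shared between them were counted is not given in the sources used here, so their values are uncertain.

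COS8 (YHL048W, chromosome VIII, 6401 to 7546) was the other called gene of 7 tested COS genes. It had 38.96, 41.7 and 53.98 CPM in H4R55A, against 32.9, 33.2 and 23.8 CPM in H3K18A and 22.2, 16.3 and 15.4 CPM in H3K37R (log2 fold change 0.95; edgeR, adjusted p = 0.0446). No library overlapped, but the lowest H4R55A library stood near the highest of H3K18A, and the call was made against H3K37R (log2 fold change 1.31, adjusted p = 0.0190) and not against H3K18A (0.58, adjusted p = 0.23). The median log2 fold change of the 7 COS genes was 0.469, beside 0.0295 over all tested genes. It was 0.016 against H3K18A and 1.01 against H3K37R, and 0.794 against the mean of both without H4R55A S126. Among 100 tested genes within 20000 bases of a nuclear chromosome end, a distance chosen after the values were seen, 8 (8%) had all H4R55A libraries above all 6 H3 mutant libraries, beside 4.4% of all tested genes. SIR2, SIR3 and SIR4, which encode the proteins that silence chromatin near telomeres, had log2 fold changes of 0.37, 0.44 and 0.33, and none was called.

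**Figure D2:**
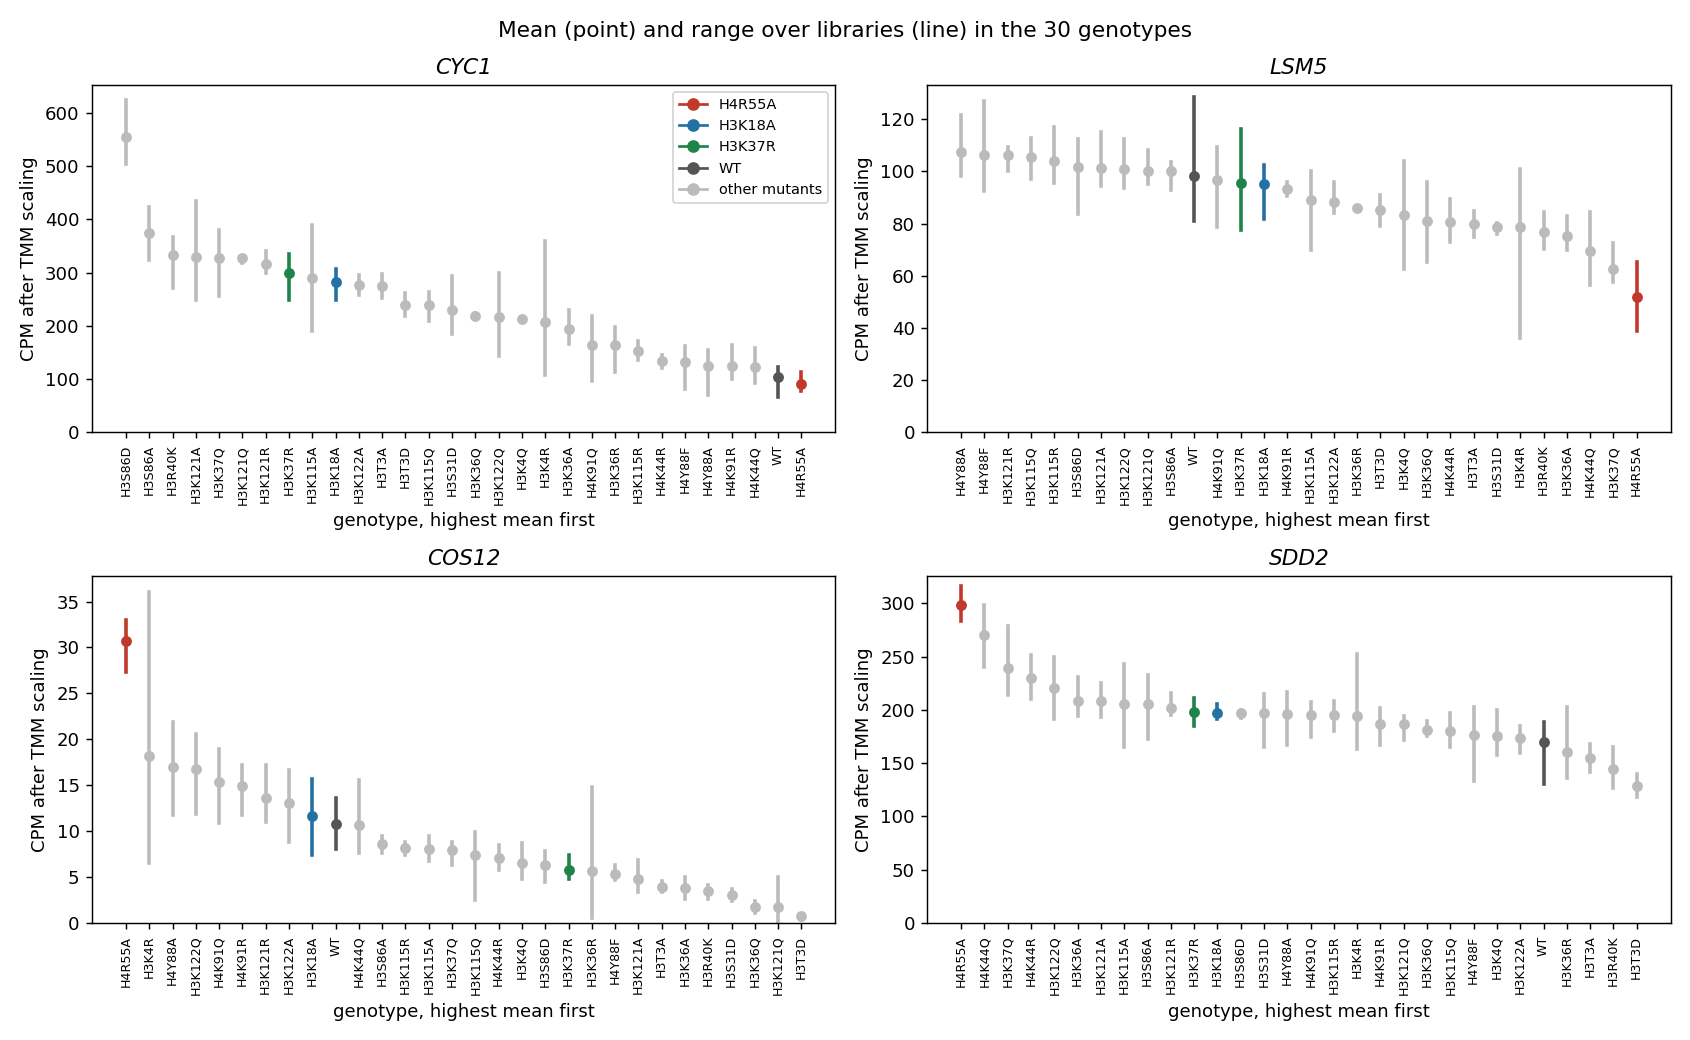
Mean level (points) and range over libraries (lines) of CYC1, LSM5, COS12 and SDD2 in the 30 genotypes, in CPM after TMM scaling (y axis, linear, from 0), with genotypes ordered from the highest mean to the lowest. H4R55A stands at the low end for CYC1 (90.4 CPM) and LSM5 (51.99 CPM) and at the high end for COS12 (30.8 CPM) and SDD2 (298 CPM), with WT beside it for CYC1 only.

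SDD2 and AFR1 rose by smaller factors with little spread among the H4R55A libraries. SDD2 (YMR074C) had 284, 316 and 295 CPM in H4R55A, against 205, 192 and 195 CPM in H3K18A and 185, 197 and 212 CPM in H3K37R (log2 fold change 0.59 ± 0.13, SE; edgeR, adjusted p = 0.0195). It stood higher than in WT as well (130.5 to 188 CPM; log2 fold change 0.81, adjusted p = 0.00174 in edgeR), and H4R55A had the highest mean of all genotypes, with an overlap in H4K44Q only. The SDD2 call against WT held without H4R55A S125 (0.766, adjusted p = 0.0345 in edgeR) but not with the run as a covariate (0.755, adjusted p = 0.0653) or within the run (0.699, adjusted p = 0.142). AFR1, which shapes the mating projection and tunes signalling by the pheromone receptor, had 53.2, 54.4 and 57.6 CPM in H4R55A and 20.8 to 38.3 CPM in the H3 mutants (log2 fold change 0.88). In neither of these genes did the groups overlap. AFR1 was called against WT too (log2 fold change 0.96; edgeR, adjusted p = 0.0191), but not with the run as a covariate (0.818, adjusted p = 0.296), within the run (0.561, adjusted p = 0.437) or without H4R55A S125 (0.973, adjusted p = 0.258).

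ARO80, NTG1 and BNA1 rose against the H3 mutants, and their H4R55A libraries overlapped those of WT. ARO80, the activator of genes that break down aromatic amino acids, had 22.5, 32.02 and 23.7 CPM in H4R55A, against 9.39, 12.8 and 12.6 CPM in H3K18A and 10.6, 13.6 and 11.7 CPM in H3K37R. The log2 fold change was 1.15 ± 0.23 (SE; edgeR, adjusted p = 0.00460), with no overlap, and WT libraries held 15.6 to 26.6 CPM. Its targets ARO9 and ARO10, transaminase and decarboxylase genes of that pathway, had log2 fold changes of -0.67 and -0.60 and were not called. NTG1, a DNA glycosylase gene of base excision repair, had 35.96, 49.3 and 52.2 CPM in H4R55A and 19.8 to 27.8 CPM in the H3 mutants (log2 fold change 1.01; edgeR, adjusted p = 0.0237). WT libraries held 32.6 to 45.1 CPM of NTG1. BNA1, which makes quinolinic acid on the way from tryptophan to NAD, had 150, 172 and 93.4 CPM in H4R55A and 58.96 to 84.3 CPM in the H3 mutants (log2 fold change 0.90; edgeR, adjusted p = 0.0352). H4R55A S126 was the lowest of its group for BNA1 but still above all H3 mutant libraries. WT libraries held 148 to 210 CPM of BNA1, and H3K18A and H3K37R were called lower than WT (log2 fold changes -1.15 and -1.23; edgeR, adjusted p = 0.0261 and 0.00995). Neither BNA1 call against WT held with the run as a covariate (-0.878 and -0.96; edgeR, adjusted p = 0.108 and 0.183) or within the run (-0.949 and -1.03; adjusted p = 0.0513 and 0.11). BNA1 was the 1 called gene of 13 tested genes of NAD synthesis.

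The other genes that rose were mostly of low abundance. LOH1 (YJL038C, chromosome X, 375115 to 375774), a gene of spore wall formation with a level under the 10 CPM set for naming in part of its H4R55A libraries and was named after its values were seen, had 8.24, 8.64 and 10.9 CPM in H4R55A and 1.06 to 4.65 CPM in the H3 mutants. These levels rest on 11 to 18 counts in H4R55A and 2 to 8 counts in the H3 mutants. The log2 fold change was 2.07 ± 0.41 (SE; edgeR, adjusted p = 0.00460), and WT libraries held 5.06 to 7.04 CPM. Its neighbour IRC18 (YJL037W, 376662 to 377336), also a spore wall gene, had 29.2, 19.8 and 23.7 CPM in H4R55A and 6.80 to 19.2 CPM in the H3 mutants. IRC18 just missed the threshold (log2 fold change 1.18; edgeR, adjusted p = 0.0524) and was called against H3K37R alone (1.70, adjusted p = 0.0211). SMK1, the protein kinase that directs spore wall assembly, had 3.75, 6.10 and 6.67 CPM in H4R55A and 0.532 to 1.36 CPM in the H3 mutants, or 5 to 12 counts against 1 to 2 (log2 fold change 2.37 ± 0.58, SE; edgeR, adjusted p = 0.0446). YBL107W-A had 8.24, 15.2 and 11.5 CPM in H4R55A and 0 to 4.08 CPM in the H3 mutants. YKL136W had 28.5, 33.5 and 33.4 CPM in H4R55A and 9.39 to 24.5 CPM in the H3 mutants. The annotation used has no entry for either. YKL136W was called against H3K18A (1.67, adjusted p = 0.00859 in edgeR) and not against H3K37R (0.69, adjusted p = 0.56). WT libraries held 19.1 to 35.9 CPM of YKL136W, a range that holds all H4R55A libraries. H3K18A was called lower than WT (-1.40, adjusted p = 0.0340 in edgeR), but not with the run as a covariate (-1.36, adjusted p = 0.0578). Within the run, where WT has 1 library, the log2 fold change of H3K18A against WT was -1.57. YDR210C-D, a reading frame of a Ty retrotransposon with near-identical copies elsewhere in the genome, was named after its values were seen. It had 94.4, 115.9 and 40.6 CPM in H4R55A and 26.5 to 43.6 CPM in the H3 mutants, with H4R55A S126 inside their range (log2 fold change 1.40; edgeR, adjusted p = 0.0308). Its mean was 83.6 ± 38.8 CPM in H4R55A (SD, n = 3) and 83.4 ± 25.7 CPM in WT (SD, n = 4). For YDR210C-D, H3K18A was not called against WT (-1.47, adjusted p = 0.177 in edgeR), but was with the run as a covariate (-1.97, adjusted p = 0.0275). H3K37R was called in neither fit (-1.33 and -1.83, adjusted p = 0.117 and 0.0544 in edgeR).

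Set against each H3 mutant alone, H4R55A differed from H3K18A in 27 genes (0.464%), 8 higher (0.137%) and 19 lower (0.326%), and from H3K37R in 6 genes (0.103%), 4 higher (0.0687%) and 2 lower (0.0344%). CYC1 and LSM5 were called against both. These comparisons, and that with WT below, share the H4R55A libraries on which the 20 genes were picked, so their counts are not independent. Against H3K18A no gene was called by edgeR without H4R55A S125 (592 genes at an unadjusted p under 0.05), and 199 were called without H4R55A S124; the count was 3, 1 and 1 without H3K18A S127, S128 and S129 and 5 without H4R55A S126. Against H3K37R the count was 20 without H4R55A S124, 2 without S126, and 3 without H3K37R S122 or S123. CSM3, a gene of the replication fork protection complex, was the gene that set the H3 mutants apart, and H4R55A stood on the side of H3K37R. It had 10.5, 28.5 and 27.9 CPM in H4R55A and was lower than in H3K18A by a log2 fold change of -1.20 (edgeR, adjusted p = 0.0200). Against WT, 78 genes (1.34%) were called in H4R55A, 28 higher (0.481%) and 50 lower (0.859%), where 3 of the 4 WT libraries come from another run of sample numbers. In a fit restricted to the 24 libraries of the same run, with WT S133 alone and assumed to vary like the other genotypes, 5 genes were called, 0 of them among the 78. With the run as a covariate 5 genes were called as well, 3 of them among the 78. The WT count was 3 without H4R55A S125, 20 without H4R55A S126, 263 without H4R55A S124, 210 without WT S133, 32 without WT S46, 8 without WT S81, and 56 higher than 78 without WT S82. The 4 largest decreases against WT were MRP2 (-2.33), COA3 (-2.15), PXP2 (-1.99) and SIM1 (-1.85), and the 4 largest increases were tK(UUU)O (2.27), tI(AAU)E2 (2.11), YKR035C (1.77) and YDR401W (1.69), all as log2 fold changes. Of these 8 genes YDR401W was called with the run as a covariate (1.93; edgeR, adjusted p = 0.0486), and none was called within the run. MRP2 is a mitochondrial ribosomal protein gene and COA3 a cytochrome oxidase assembly gene, while tK(UUU)O and tI(AAU)E2 are tRNA genes with identical copies, so their counts are uncertain. Of the 20 genes called against the H3 mutants, 7 were called against WT, 1 of them (LSM5) with the run as a covariate and 0 within the run.

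**Figure D3:**
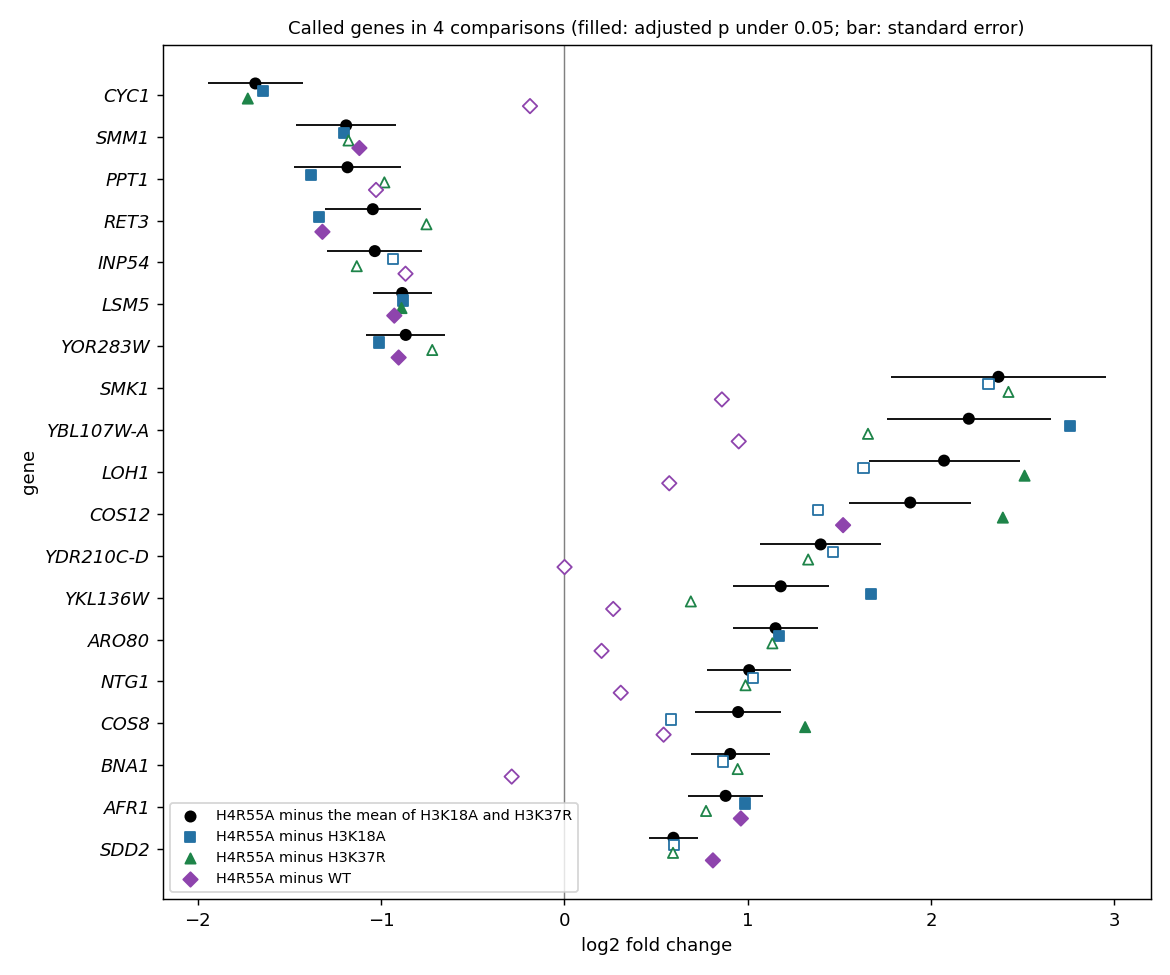
Log2 fold changes (x axis) of 19 of the 20 called genes in 4 comparisons of H4R55A, with filled symbols for an adjusted p under 0.05 and a bar for the standard error of the main comparison. Values against WT lie near those against the H3 mutants for LSM5 (-0.93 beside -0.89) and near 0 for CYC1 (-0.19 beside -1.69) and YDR210C-D (0.00 beside 1.40).

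H4R55A differs from its comparators also in which histone is mutated. The other 6 H4 mutants were therefore set against the other 20 H3 mutants, a comparison added after the data were seen that uses none of the 9 libraries. It called 149 genes (2.56%), among them 5 of the 20 genes, each in the same direction as H4R55A. Of its libraries, 1 of 19 for H4 and 13 of 58 for H3 lie in the run of H4R55A. The run was not a covariate, so histone and run are in part confounded there. CYC1 was lower in the other H4 mutants (genotype means 122.8 to 164 CPM) than in the other H3 mutants (154 to 554 CPM), by a log2 fold change of -0.99 (edgeR, adjusted p = 7.98e-12). COS12 was higher by 0.99 (adjusted p = 2.28e-05 in edgeR), YDR210C-D by 1.16, BNA1 by 0.58 and AFR1 by 0.29. LSM5 had a log2 fold change of 0.03 in that comparison and ARO80 one of 0.01, neither called. Set against WT in the same fit, the other H3 mutants were called higher for CYC1 (1.36, adjusted p = 4.86e-06 in edgeR). They were called lower for BNA1 (-1.16) and YDR210C-D (-1.71), each at an adjusted p of 6.2e-08 in edgeR. The other H4 mutants were not called against WT for CYC1 (0.37), BNA1 (-0.57) or YDR210C-D (-0.55). For COS12 and AFR1 neither set was called against WT. Against the mean of the other 6 H4 mutants, H4R55A itself was called for 364 genes (6.25%), and 11 of the 20 were called in the same direction. The 20 genes were picked on the same H4R55A libraries, so these 11 are not independent of that choice. LSM5 (-0.82), COS12 (1.5), SDD2 (0.53), RET3 (-1.14) and SMM1 (-1.05) were among them, and CYC1 (-0.56; edgeR, adjusted p = 0.11), BNA1 and YDR210C-D were not. Of the 19 libraries of the other H4 mutants 1 lies in the run of H4R55A, so genotype and run cannot be told apart in that comparison.

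When the model was fitted only to the 24 libraries of the run, 387 of 5776 tested genes (6.7%) were called between H4R55A and the H3 mutants, 177 higher (3.06%) and 210 lower (3.64%), and all 20 genes were among them. The common spread between libraries of a genotype was 16.5% in that fit and 23.3% in the fit to all 90 libraries. The number rested on H4R55A S125: 13 genes were called without it, all of them among the 387, against 33 without H4R55A S126 and 1047 without H4R55A S124. CYC1, COS12, NTG1, LOH1 and YKL136W were the 5 of the 20 genes among the 13. The others were all named after their values were seen. IRC18, the glycogen synthase gene GSY2, CNL1, ISF1 and the Ty reading frame YMR045C rose, and ERB1, FIT1 and snR11 fell against the mean of the H3 mutants. In the fit to all 90 libraries ERB1 was called against H3K18A (-0.90, adjusted p = 0.0346 in edgeR) and not against H3K37R (-0.15, adjusted p = 0.88). Its mean was 333 CPM in H4R55A, 622 CPM in H3K18A, 369 CPM in H3K37R and 334 CPM in WT. GSY2 had 45.7, 43.2 and 108.6 CPM in H4R55A and 21.1 to 32.97 CPM in the H3 mutants, and FIT1, a cell wall protein gene of iron uptake, had 8.99, 25.4 and 4.25 CPM in H4R55A and 26.5 to 149 CPM in the H3 mutants. Neither gene's groups overlapped.

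The gene groups below were described by counts and medians. No list had more than 2 called members in the fit to all libraries, and the counts in the fit to the 24 libraries are given beside these, with those left without H4R55A S125. In that fit 3.06% of all tested genes rose and 3.64% fell. In the fit to all libraries 0.344% of all tested genes were called, and 16.6% had an unadjusted p under 0.05. Calls in the second fit fell with that library to 1 or 0 per list in each group described here.

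The histone genes stood lower in H4R55A. All 11 tested histone genes had a negative log2 fold change, with a median of -0.991 (-0.664 without H4R55A S125), and 7 had every H4R55A library below every H3 mutant library, beside 4.33% of all tested genes. None was called against the H3 mutants by edgeR in the fit to all libraries (9 had an unadjusted p under 0.05, and DESeq2 called 1, HHF1). In the fit to the 24 libraries 7 fell, of which 0 remained without H4R55A S125. HHF1, a gene for H4 itself, had 1771, 222 and 1017 CPM in H4R55A, against 2455, 3063 and 2825 CPM in H3K18A and 2456, 2786 and 1866 CPM in H3K37R (log2 fold change -1.36; edgeR, adjusted p = 0.0974). HTB1, a gene for H2B, had 166, 14.7 and 107.97 CPM in H4R55A and 181 to 305 CPM in the H3 mutants (log2 fold change -1.22, adjusted p = 0.18 in edgeR). Against WT, in the fit to all libraries, HTB1 was called lower (-1.70, adjusted p = 0.0478 in edgeR). The median of the 11 histone genes against WT was -0.825. H4R55A S125 was the lowest of the 9 libraries for each of the 8 genes of H2A, H2B, H3 and H4, and H4R55A S124 lay closest to the H3 mutants. Among the variant genes, HTZ1, for the H2A variant, had 53.2, 47.8 and 58.2 CPM in H4R55A and 72.3 to 89.9 CPM in the H3 mutants, without overlap. CSE4, for the centromeric H3, had 22.4 to 29.0 CPM in H4R55A and 21.1 to 35.1 CPM in the H3 mutants, and HHO1, for the linker histone, had 56.9, 52.3 and 53.4 CPM in H4R55A and 53.7 to 80.7 CPM in the H3 mutants. In bulk libraries a smaller share of cells that express these genes and less of their RNA per cell cannot be told apart. All 11 histone genes together took 0.283%, 0.0745% and 0.191% of the gene counts in H4R55A, 0.304% to 0.417% in the H3 mutants and 0.218% to 0.429% in WT, so that H4R55A S124 lay within the WT range and the other 2 H4R55A libraries below it.

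**Figure D4:**
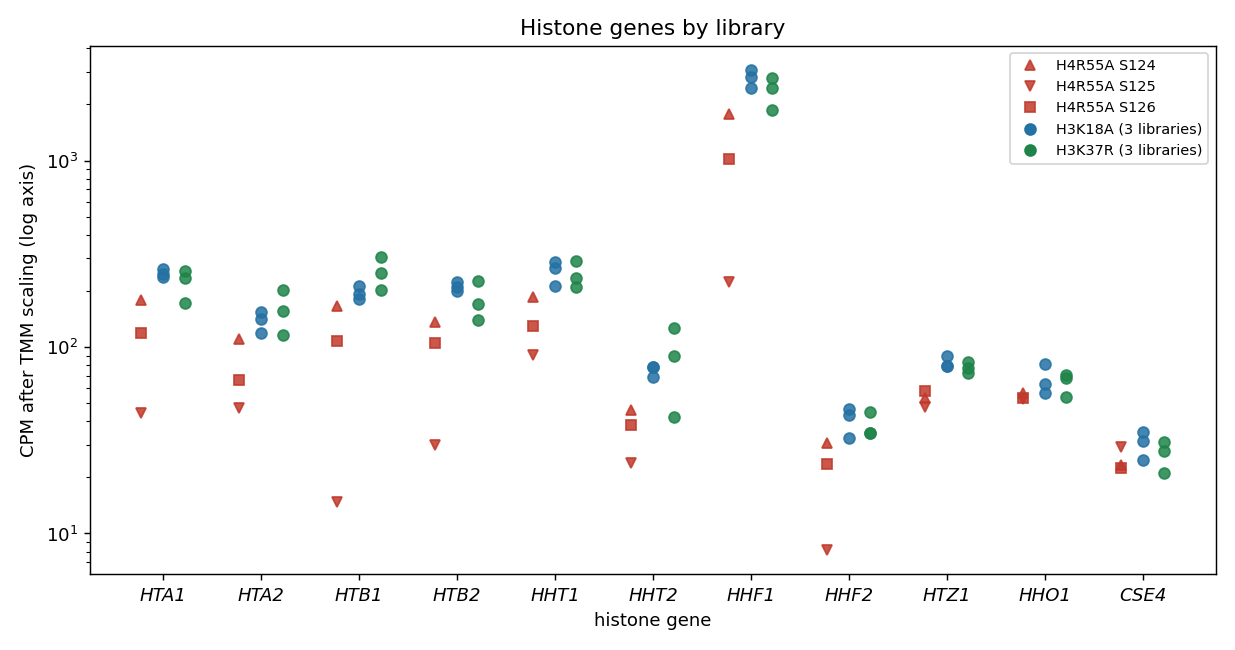
Level of the 11 histone genes in CPM after TMM scaling (y axis, log scale) in each library of H4R55A (red, one symbol per library), H3K18A (blue) and H3K37R (green). H4R55A S125 is lowest for the genes of H2A, H2B, H3 and H4 (14.7 CPM of HTB1), and the H4R55A libraries of CSE4 lie among those of the H3 mutants.

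Glycolytic enzymes and ribosomal proteins also stood lower than in the H3 mutants, with the same library apart for the ribosomal proteins. Of 21 genes of glycolysis 16 were negative, with a median of -0.715, and none was called by edgeR (13 at an unadjusted p under 0.05) or by DESeq2. Against the mean of the 7 other mutants of the run the median was -0.318. It was -0.715 against WT, and WT S133, the WT library of the run, stood at -0.219 relative to the H3 mutants. TDH3, glyceraldehyde-3-phosphate dehydrogenase, had 32690, 26248 and 17490 CPM in H4R55A and 33266 to 58960 CPM in the H3 mutants, without overlap (log2 fold change -0.81; edgeR, adjusted p = 0.19). PGK1, phosphoglycerate kinase, had 1581, 126.04 and 534 CPM in H4R55A and 1326 to 2663 CPM in the H3 mutants, with H4R55A S124 inside that range. In the fit to the 24 libraries 6 glycolytic genes fell, and without H4R55A S125 none did. Of 56 genes for proteins of the small ribosomal subunit 53 were negative (median -0.458), and of 81 for the large subunit 64 were (median -0.362). None of them was called by edgeR (an unadjusted p under 0.05 was reached by 20 small and 25 large subunit genes) or by DESeq2. The median of the small subunit genes was -0.136, -0.848 and -0.364 in H4R55A S124, S125 and S126, relative to the mean of the H3 mutants. That of the large subunit genes was -0.0698, -0.886 and -0.259. On the same scale WT S133 stood at -0.423 and -0.388, lower than H4R55A S124 and S126. Against all WT libraries the median log2 fold changes of H4R55A were -0.303 for the small and -0.264 for the large subunit. Without H4R55A S125 the median log2 fold changes were -0.229 for the small and -0.165 for the large subunit, and against the mean of the 7 other mutants of the run they were -0.153 and -0.125. In the 24-library fit 8 of the 56 small subunit genes fell, and 2 of the 81 large subunit genes, a smaller share than the 3.64% of all tested genes; without H4R55A S125 none did.

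Genes of iron uptake and use stood lower than in the H3 mutants but not than in WT. Of 32 tested genes, 28 were negative with a median of -0.7, 9 had all H4R55A libraries below all H3 mutant libraries, beside 4.33% of all tested genes, and none was called by edgeR (8 at an unadjusted p under 0.05) or by DESeq2. The median was 0.201 against WT and 0.011 against the mean of the 7 other mutants of the run. Relative to the mean of the H3 mutants, their own libraries ran from -0.291 (H3K18A S129) to 0.388 (H3K18A S128), and H4R55A stood at -0.489, -0.4 and -0.861. As a share of the gene counts the list took 0.329%, 0.536% and 0.215% in H4R55A S124, S125 and S126. It took 0.401% to 0.813% in the H3 mutants, so S125 lay inside their range. FIT3, a cell wall mannoprotein gene that aids siderophore uptake, had 536, 646 and 60.05 CPM in H4R55A and 1035 to 2867 CPM in the H3 mutants, where the WT mean was 265 CPM. FIT2 had 721, 1684 and 149 CPM in H4R55A and 997 to 2805 CPM in the H3 mutants. For these genes it was H4R55A S126, not S125, that lay lowest. In the 24-library fit 5 genes fell (FET4, FIT1, FIT3, CCC2 and ISU2), and FIT1 was still called without H4R55A S125.

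Genes of mating and of sporulation stood higher than in the H3 mutants, by median more against H3K18A than against H3K37R. Of 32 tested genes of the pheromone response 24 were positive, with a median of 0.325, and 6 had all H4R55A libraries above all H3 mutant libraries, beside 4.4% of all genes. None was called by edgeR (8 at an unadjusted p under 0.05) or by DESeq2. FUS1, a cell fusion gene, had 139.4, 155 and 154 CPM in H4R55A and 85.5 to 130.7 CPM in the H3 mutants (log2 fold change 0.55; edgeR, adjusted p = 0.20). FUS2 had 30.7, 23.4 and 34.6 CPM in H4R55A and 14.6 to 21.8 CPM in the H3 mutants. The pheromone genes had a median log2 fold change of 0.472 against H3K18A, 0.117 against H3K37R and -0.109 against WT. Relative to the mean of the H3 mutants, WT S133 stood at 0.195 for this list. FUS1 stood at 160 CPM in WT on average. In the 24-library fit 7 rose (FUS1, FUS2, FIG2, PRM2, PRM3, PRM6 and AGA1), and none did without H4R55A S125. Of 40 genes of meiosis and sporulation 33 were positive (median 0.388). Of these 40, edgeR called 1, SMK1, beside 0.344% of all tested genes, and DESeq2 called IRC18 and SMK1. An unadjusted p under 0.05 was reached by 7 of the 40, a share near the 16.6% of all tested genes. The median of the list was 0.546 against H3K18A and 0.244 against H3K37R. Against WT it was 0.33. Most of these genes were at a few CPM, and 4 rose in the 24-library fit (IRC18, SMK1, SPO73 and SPO74).

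Of 52 tested genes for enzymes that write or remove histone marks, 38 were positive, with a median of 0.174. In 7 of them all H4R55A libraries lay above those of the H3 mutants, beside 4.4% of all tested genes. The median of the list was -0.0229 against WT. Relative to the mean of the H3 mutants, the H4R55A libraries stood at 0.0797, 0.165 and 0.224. WT S133, the WT library of the run, stood at 0.244. HDA1, a histone deacetylase, had 46.5, 49.8 and 61.9 CPM in H4R55A and 27.3 to 38.4 CPM in the H3 mutants (log2 fold change 0.63; edgeR, adjusted p = 0.16). ESA1, the acetyltransferase of the H4 tail, had 50.9, 67.6 and 63.7 CPM in H4R55A and 33.2 to 49.6 CPM in the H3 mutants. Neither was called, nor was any other gene of the list by edgeR or DESeq2. An unadjusted p under 0.05 was reached by 5 of the 52 genes, a smaller share than the 16.6% of all tested genes. In the 24-library fit ESA1, HDA1, RCO1 and JHD2 rose, beside 3.06% of all tested genes, 0 of them without H4R55A S125. Genes of the respiratory chain spread most among the H4R55A libraries, with medians of 0.0504, -0.62 and 0.7 in S124, S125 and S126. QCR7, a subunit of complex III, had 125.9, 121.5 and 354 CPM in H4R55A and 85.5 to 131.98 CPM in the H3 mutants, so that S126 alone lay outside that range. Lipid synthesis genes stood lower in 20 of 22 cases (median -0.383), with none called by edgeR (7 at an unadjusted p under 0.05) or DESeq2. Their median was -0.223 without H4R55A S126 and -0.148 against the mean of the 7 other mutants of the run. CHO2, a methyltransferase of phosphatidylcholine synthesis, had 172, 86.4 and 114.03 CPM in H4R55A and 173 to 294 CPM in the H3 mutants, and the highest H4R55A library thus came close to the lowest H3 mutant library.

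**Figure D5:**
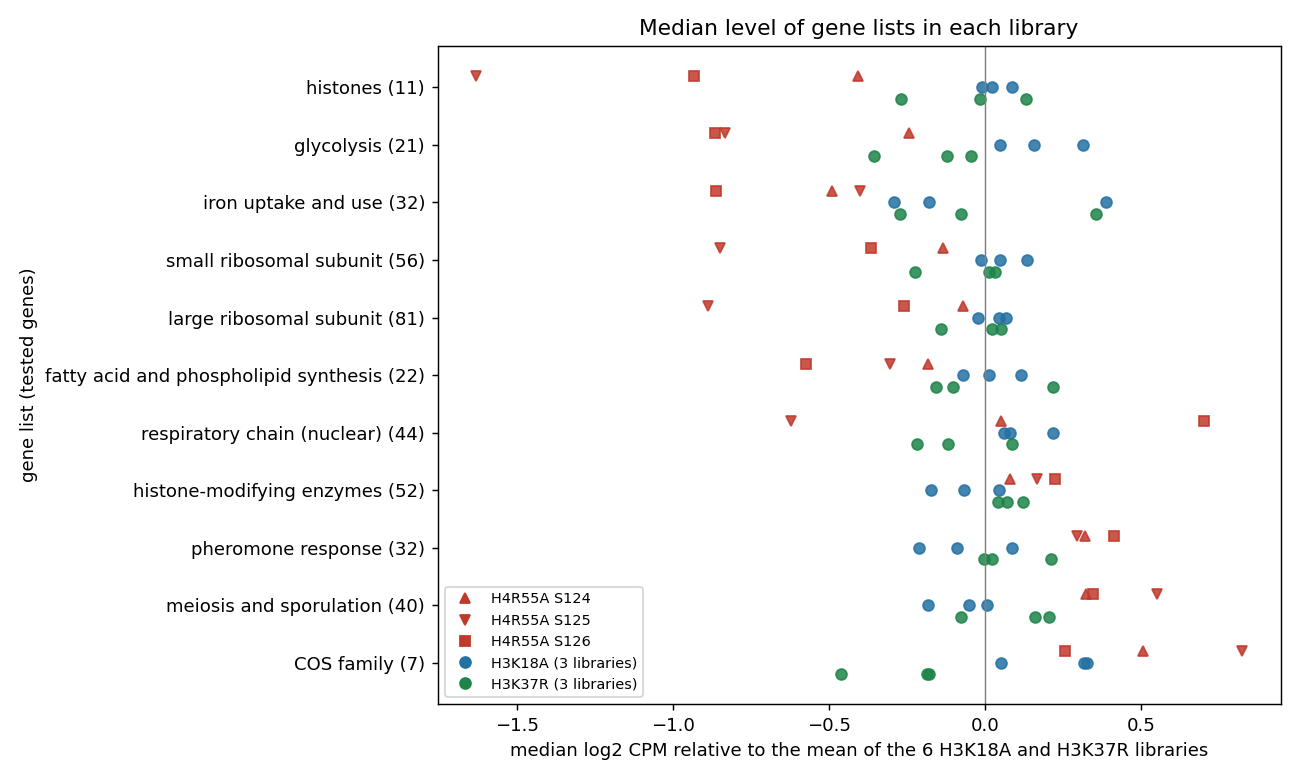
Median log2 CPM of 11 gene lists in each library (x axis, relative to the mean of the 6 H3K18A and H3K37R libraries), with H4R55A libraries in red (one symbol each), H3K18A in blue and H3K37R in green. H4R55A S125 is lowest for histones (-1.63), and S125 and S126 lie on opposite sides of 0 for the respiratory chain (-0.62 and 0.7).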

How the data were processed

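The authors deposited raw counts per gene for 90 RNA libraries, which were used unchanged; the submitters' processing notes name TopHat, HTSeq, featureCounts 1.5.3 and sacCer3 without roles, and a strand setting is not given in the sources used here. The ATAC samples were not used. The table held 7122 genes, of which 6045 (84.9%) matched RefSeq (R64, the assembly UCSC names sacCer3), and 5 summary lines, which were left out. Genes were kept by filterByExpr, scaled by TMM and fitted with edgeR 4.0.16 in R 4.3.3 by a quasi-likelihood model with 1 coefficient per genotype over 90 libraries (60 residual degrees of freedom). The contrast was H4R55A minus the mean of H3K18A and H3K37R; tests were two-sided, and genes were called at a Benjamini-Hochberg adjusted p under 0.05. The log2 CPM used a prior count of 2. The pipeline was tested on simulated data.

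Members, gene lists and tests were chosen with earlier results of these data known. Genes were named where called, with no library overlap and at least 10 CPM (up to 15 each way), or as called members of a list, histone genes or mating markers; the 4 largest calls each way were named against WT. Of the called genes, 1 is not reported here. Columns carry a sample number, which names each library. The runs of sample numbers were defined after the data were seen. Alternatives were DESeq2 1.42.0, RLE scaling, no filter, a minimum log2 fold change of 1, other sets of libraries or references, and each library left out.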

Additional observations from a re-analysis of the deposited data

Results flagged for a closer look

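CSM3 differed between the H3 mutants: the log2 fold change of H4R55A against H3K18A minus that against H3K37R was -1.50 (edgeR's quasi-likelihood test of the difference, adjusted p = 0.00285). The 4 WT libraries were examined for a library far from the others over 31 genes (the called and the histone genes), and 2 were flagged, where chance flags about 1 in 20 groups. HHT2 had 140.8 CPM in WT S133, against 55.7 to 64.3 CPM in the other WT libraries, and S133 is the WT library of the run that holds H4R55A. CSE4 had 36.1 CPM in WT S82, against 23.8 to 24.9 CPM in the other WT libraries.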

How the results depend on the processing

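The count of 20 genes between H4R55A and the mean of the H3 mutants was 0 with a minimum log2 fold change of 1 (27 genes at an unadjusted p under 0.05), 36 with DESeq2, 54 with only the 9 libraries, 387 with only the 24 libraries of the run, 181 against the mean of all 7 other mutants of the run, and 3 to 158 with a library left out. With only the run and 1 H4R55A library left out it was 1047 (S124), 13 (S125) and 33 (S126). Against H3K18A (27 genes) the count was 0 with the minimum fold (59 genes at an unadjusted p under 0.05), 163 with only both genotypes, 66 with DESeq2 and 0 to 199 with a library left out. Against H3K37R (6 genes) it was 0 with the minimum fold (25 at an unadjusted p under 0.05; DESeq2 called 6), 2 with only both genotypes and 2 to 20. Between H3K18A and H3K37R (1 gene) it was 0 with the minimum fold (13 at an unadjusted p under 0.05; DESeq2 called 1), 51 with only both genotypes and 0 to 1. Against WT (78 genes) it was 0 with the minimum fold (66 at an unadjusted p under 0.05), 0 with only both genotypes (686 at an unadjusted p under 0.05), 158 with DESeq2, 5 with only the run or with the run as a covariate, and 3 to 263. The causes were not tested.

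CYC1 and COS12 were each called under 21 of 22 alternatives, the exception being the minimum fold, with log2 fold changes of -1.87 to -1.19 and 1.76 to 2.88. None of the 20 genes changed sign under any of these alternatives. With 3 libraries per genotype and 5 to 12 counts in the lowest genes, small differences were not detectable at this depth. No paired analysis was possible because the columns carry sample numbers but no replicate number.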
